A study of Mus musculus with 6 samples.

Results

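Acyl-CoA synthetases of the Acsl family and acyl-CoA thioesterases of the Acot family were followed in hearts of mice that overexpress fatty acid synthase (FASN), the enzyme that makes palmitate. The set was every probe set (a group of short probes that reads 1 transcript) annotated to exactly 1 of 10 gene symbols. These were the synthetase genes Acsl1, Acsl3, Acsl4, Acsl5 and Acsl6 and the thioesterase genes Acot1, Acot2, Acot7, Acot9 and Acot13. It held 15 of the 45037 probe sets other than controls, for 9 of the 10 genes. Acsl1 had 0 named probe sets in the annotation supplied with the data and was not analysed here, and 2 further probe sets that carry a member's symbol beside another gene's were left out. Of the 15 probe sets, 12 passed the filter on dim signals and were tested, with at least 1 for each of the 9 genes.

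The study measured male mouse hearts on 6 Affymetrix arrays, 2 per group. One group was a C57BL/6J transgenic line with high cardiac FASN, the next a transgenic line of the same strain with low cardiac FASN, and the last age-matched B6 controls, also labelled C57BL/6J. The alpha-MHC promoter, a promoter of cardiac myocytes, drove FASN in both lines. Because 1 line stands for each FASN level, level and line cannot be told apart. No age was found in the sources used here. Controls carry the same tissue label as the transgenic hearts, so groups were taken from the sample titles. Whether a group's 2 arrays are separate hearts is not stated, and p-values therefore cover only array-to-array spread, possibly technical.

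Long-chain acyl-CoA synthetases join a fatty acid to coenzyme A at the cost of ATP, the step that commits it to oxidation, storage or membrane synthesis. Acyl-CoA thioesterases run the opposite way and release the free fatty acid and coenzyme A. The heart burns mainly fatty acids, and the families are spread over the cytosol, the endoplasmic reticulum and the mitochondria. Several of the genes, Acot1 and Acot2 among them, are known targets of PPAR alpha, a nuclear receptor that fatty acids activate.

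Signals are linear, in arbitrary units, and the mean of each array after 2% had been trimmed at each end was 300.002. Differences are given on the log2(signal + 16) scale, which understates changes of dim probe sets. Arrays of one group correlated at 0.987 to 0.990 over the tested probe sets and arrays of different groups at 0.969 to 0.977. The Fasn probe set averaged 2186 ± 116 in high-FASN hearts, 471 ± 13.3 in low-FASN hearts and 200.3 ± 18.5 in controls (SD, n = 2 each). All 8 heart muscle markers examined (Myh6, Tnnt2, Actc1, Tnni3, Ryr2, Mb, Myl2 and Pln) were bright in every group.

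Differences across the set lay mainly in Acsl6 and Acot2, with smaller ones in Acsl5, Acsl4 and Acot1. Against control, the high-FASN line had 1 probe set higher and 1 lower of 12 (16.7%). Over the 22519 probe sets tested on the arrays 14.4% were called there, 8.18% higher and 6.18% lower. The low-FASN line had 1 higher and 3 lower of 12 (33.3%), with 24.3% called over all tested probe sets, 13.5% higher and 10.8% lower. Between the lines 4 were higher in high-FASN hearts and 1 lower (41.7%), with 18.6% called over all, 9.69% higher and 8.87% lower. A call is a Benjamini-Hochberg adjusted p below 0.05 in limma, two-sided, adjusted over all tested probe sets, and 95% intervals are unadjusted. Bright probe sets were called more often. When only those above the 75th percentile of mean log2 signal were fitted and adjusted, 2, 5 and 5 of 9 member probe sets were called in the 3 comparisons in the same order (22.2%, 55.6% and 55.6%), beside 25.8%, 38.9% and 34.5% of the 11260 probe sets at that brightness. The share of members called in high-FASN hearts against control thus lay near the background. In the other comparisons both Acot2 probe sets were among the calls, so those shares count that gene more than once. Counted by gene, 1 of 9 was higher and 2 lower in low-FASN hearts against control. Between the lines 3 of 9 genes were higher in high-FASN hearts and 1 lower. With so few members, these shares are not read as a result about the set.

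The sizes were mostly modest. Over the brightest probe set of each of the 9 genes, the median absolute log2 difference was 0.17 in high-FASN hearts against control, where it was 0.19 over all tested probe sets. It was 0.38 in low-FASN hearts against control, beside 0.23 over all, and 0.12 in high-FASN hearts against the low-FASN line, beside 0.21 over all. The 2 control arrays served both lines, and each line's difference from control therefore carries their error.

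**Figure D1:**
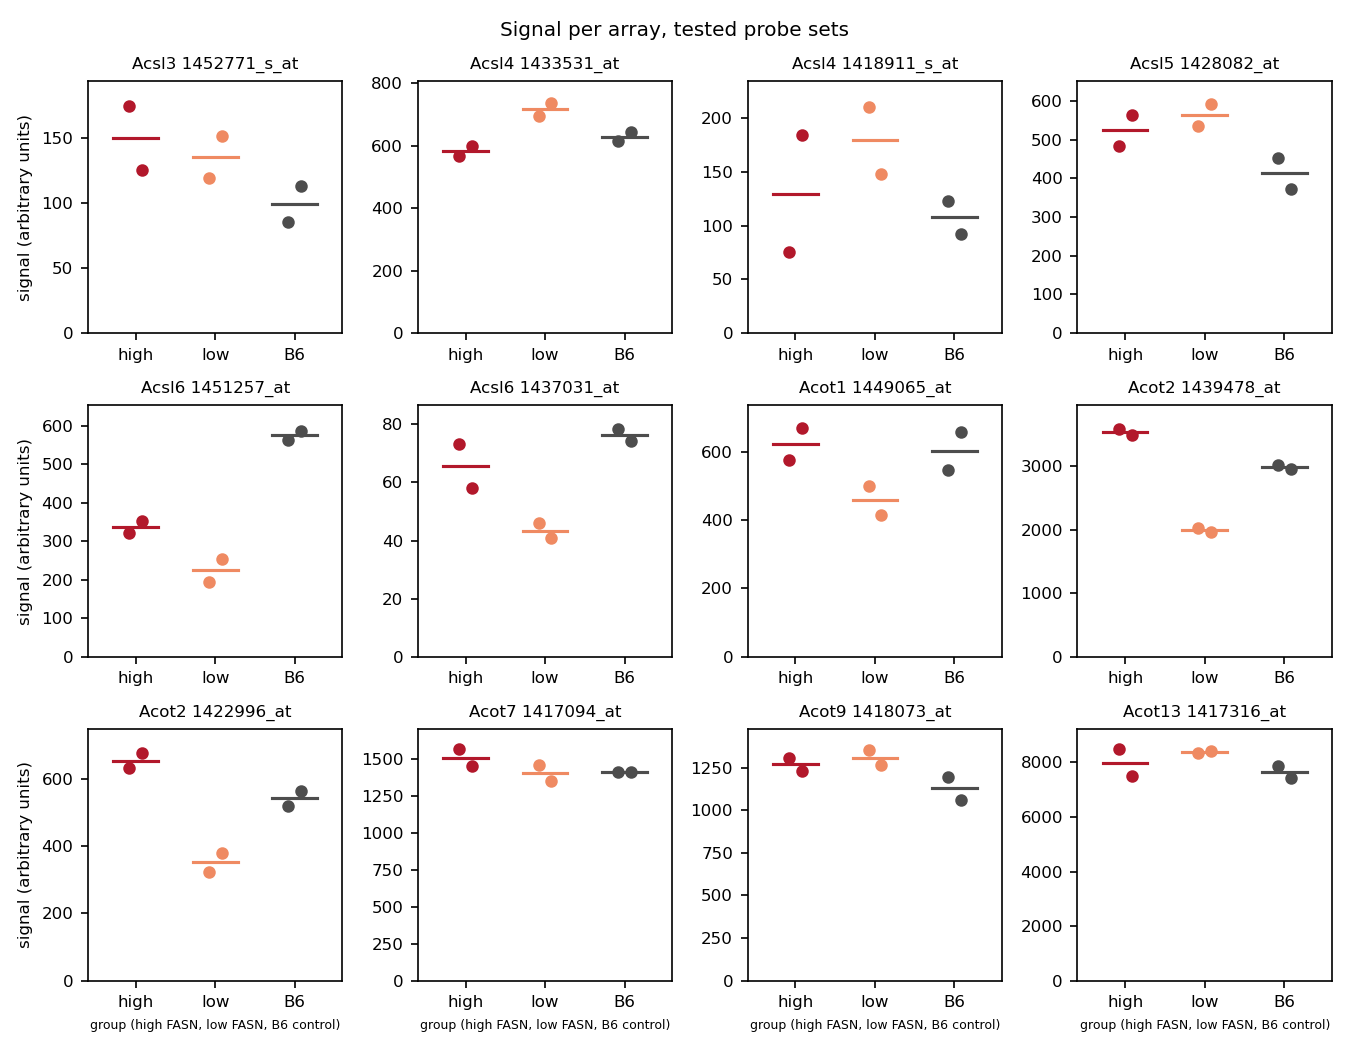
Signal per array (arbitrary units, linear axes from 0) of the 12 tested probe sets in the high FASN line, the low FASN line and B6 controls. Points are arrays and bars are means of 2 arrays. The low-FASN points of Acot2 lie below the other groups in both of its panels, and the control points of Acsl6 lie above the other groups.

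Among the synthetases, Acsl6 had the widest difference. It encodes an isoform best known from brain, where it is linked to polyunsaturated fatty acids. Its brighter probe set, 1451257_at, read 322.5 and 351.9 in high-FASN hearts, 194.4 and 254.2 in low-FASN hearts, and 564.2 and 585.4 in controls. The 3 groups did not overlap, and the low-FASN line was the lowest. In bulk tissue, fewer cells that express a gene and less of its RNA per cell cannot be told apart.

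Acsl6 fell by 0.74 ± 0.133 (SE) in high-FASN hearts against control (limma, adjusted p = 0.00597) and by 1.31 ± 0.133 in low-FASN hearts against control (adjusted p = 0.00016). As a ratio of mean signals, controls stood 1.70-fold above the high-FASN line and 2.56-fold above the low-FASN line. The high-FASN line was higher than the low-FASN line by 0.57 ± 0.133 (adjusted p = 0.0176). The fall in high-FASN hearts lost its call without control array 2 (-0.72, adjusted p = 0.055). The difference between the lines lost it under 3 of 16 alternatives, without high-FASN array 2 (0.51, adjusted p = 0.059), without low-FASN array 1 (0.39, adjusted p = 0.121) and with an untrended variance model (0.57, adjusted p = 0.0746).

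A second Acsl6 probe set, 1437031_at, was dim. It read 73.2 and 57.9 in high-FASN hearts, 45.9 and 41.0 in low-FASN hearts, and 78.3 and 74.1 in controls. Its groups stood in the same order without overlap, but it was called in none of the 3 comparisons. Its differences were -0.18 in high-FASN hearts against control (limma, adjusted p = 0.65), -0.63 in low-FASN hearts against control (adjusted p = 0.0724) and 0.45 in high-FASN hearts against the low-FASN line (adjusted p = 0.206). Unadjusted p was below 0.05 only in low-FASN hearts against control (0.0205).

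Since Acsl6 is abundant in nerve tissue, neuronal and glial markers were read beside it. Of 6 such genes, 5 had a probe set and 2 were bright enough to be tested (Sox10 and Uchl1), of which 0 were called in any comparison by limma and 0 had an unadjusted p below 0.05. The summed signal of all 5 was 273.1 to 288.7 in high-FASN hearts, 277.3 to 339.5 in low-FASN hearts and 207.0 to 213.7 in controls. Snap25, Syt1 and Tubb3 were dim in every group and below the filter. The part of nerve cells in the Acsl6 values was not tested.

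Acsl5 encodes a synthetase of mitochondria and the endoplasmic reticulum. Its probe set, 1428082_at, read 484.7 and 564.7 in high-FASN hearts, 534.4 and 591.0 in low-FASN hearts, and 451.9 and 373.2 in controls. Both lines lay above the controls, and they overlapped each other. Acsl5 rose by 0.44 ± 0.120 in low-FASN hearts against control (limma, adjusted p = 0.0262), a ratio of 1.36. The high-FASN line stood at 0.34 ± 0.120 (adjusted p = 0.0976, 95% interval 0.067 to 0.61), and the lines differed by -0.10 (high minus low, adjusted p = 0.612, 95% interval -0.37 to 0.17). The rise in low-FASN hearts lost its call under 7 of 16 alternatives, among them quantile normalization (0.38, adjusted p = 0.0533) and leaving out low-FASN array 1 (0.51, adjusted p = 0.0676), low-FASN array 2 (0.37, adjusted p = 0.167) or control array 2 (0.31, adjusted p = 0.175).

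Acsl4 encodes a synthetase that prefers arachidonate and other long polyunsaturated fatty acids. Its brightest probe set, 1433531_at, read 567.2 and 601.1 in high-FASN hearts, 696.9 and 737.9 in low-FASN hearts, and 614.8 and 643.5 in controls. The high-FASN line lay below the controls and the low-FASN line above them, without overlap. Neither line passed against control, at -0.10 in high-FASN hearts (limma, adjusted p = 0.449) and 0.18 in low-FASN hearts (adjusted p = 0.139). Between the lines Acsl4 was lower in high-FASN hearts by 0.29 ± 0.0825 on the log2 scale (adjusted p = 0.0381). That call was lost under 8 of 16 alternatives. These included leaving out high-FASN array 1 (-0.25, adjusted p = 0.122), low-FASN array 1 (-0.33, adjusted p = 0.109) or low-FASN array 2 (-0.25, adjusted p = 0.212), either control array (-0.29, adjusted p = 0.0577 and 0.0582), and the fit of only the 4 arrays compared (-0.29, adjusted p = 0.0575).

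The other Acsl4 probe sets gave no call. Probe set 1418911_s_at read 75.2 and 184.1 in high-FASN hearts, 210.0 and 148.5 in low-FASN hearts, and 123.4 and 92.3 in controls. The 2 high-FASN arrays spanned all other values except the highest of the low-FASN line, and no comparison was called. Its high-minus-low difference of -0.51 had a 95% interval of -1.26 to 0.24 and an adjusted p = 0.33. Probe set 1451828_a_at was below the filter, with means of 29.0, 27.9 and 37.0 in high-FASN hearts, the low-FASN line and controls.

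Acsl3 encodes a synthetase of the endoplasmic reticulum and of forming lipid droplets. Its brightest probe set, 1452771_s_at, read 175.0 and 125.7 in high-FASN hearts, 119.8 and 151.8 in low-FASN hearts, and 85.5 and 113.4 in controls. Every transgenic array lay above both controls. The differences were 0.52 in high-FASN hearts (limma, adjusted p = 0.149, 95% interval 0.033 to 1.01) and 0.40 in low-FASN hearts (adjusted p = 0.222, 95% interval -0.091 to 0.89), and neither was called. The other Acsl3 probe sets, 1428386_at and 1428387_at, were below the filter, between 6.11 and 57.2 on all arrays, and the first of them was lower in high-FASN hearts than in either other group (means of 25.4, 51.1 and 42.9 in high-FASN hearts, the low-FASN line and controls). The probe sets of this gene thus disagreed in direction for the high-FASN line against control, the first at a dim signal. Fitted without a filter, the first stood at -0.53 there (limma, adjusted p = 0.476).

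Among the thioesterases, Acot2 stood out. It encodes the thioesterase of the mitochondrial matrix. Its brighter probe set, 1439478_at, read 3588 and 3494 in high-FASN hearts, 2028 and 1961 in low-FASN hearts, and 3017 and 2954 in controls. The 3 groups were fully apart, with the high-FASN line above the controls and the low-FASN line below them.

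Acot2 was higher in high-FASN hearts than in low-FASN hearts by 0.82 ± 0.0538 (limma, adjusted p = 4.23e-05), a ratio of 1.78. It fell by 0.58 ± 0.0538 in low-FASN hearts against control (adjusted p = 9.56e-05). It rose by 0.24 ± 0.0538 in high-FASN hearts against control (adjusted p = 0.0157), a ratio of 1.19. The first and second of these passed under all 16 alternatives, with log2 differences of 0.78 to 0.85 between the lines and -0.66 to -0.53 in low-FASN hearts. The rise in high-FASN hearts did not pass with median centring (0.18, adjusted p = 0.0731), with an untrended variance model (0.24, adjusted p = 0.137), without control array 1 (0.26, adjusted p = 0.0706) or without control array 2 (0.23, adjusted p = 0.108).

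The second Acot2 probe set, 1422996_at, gave the same order. It read 634.3 and 676.0 in high-FASN hearts, 323.9 and 380.7 in low-FASN hearts, and 520.7 and 563.6 in controls. The groups were again apart. The high-FASN line was higher than the low-FASN line by 0.87 ± 0.105 (limma, adjusted p = 0.000767), the low-FASN line was lower than control by 0.60 on the log2 scale (adjusted p = 0.00292), and the high-FASN line stood 0.27 above control without passing (adjusted p = 0.127).

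Acot1 encodes the cytosolic relative of Acot2. Its probe set, 1449065_at, read 575.2 and 668.1 in high-FASN hearts, 498.9 and 415.5 in low-FASN hearts, and 546.7 and 656.8 in controls. The high-FASN line and the controls overlapped, and the low-FASN line lay below both. Acot1 was higher in high-FASN hearts than in low-FASN hearts by 0.43 ± 0.126 (limma, adjusted p = 0.0418). The low-FASN line stood at -0.38 against control (adjusted p = 0.053), just outside the threshold, and the high-FASN line at 0.048 (adjusted p = 0.842, 95% interval -0.24 to 0.33). The low-FASN difference passed under 7 of 16 alternatives, among them quantile normalization (-0.43, adjusted p = 0.0382), median centring (-0.47, adjusted p = 0.0221) and cyclic loess (-0.42, adjusted p = 0.0387). Between the lines the call was lost under 5 of 16 alternatives. These were leaving out high-FASN array 2 (0.33, adjusted p = 0.157), low-FASN array 1 (0.56, adjusted p = 0.0613) or low-FASN array 2 (0.30, adjusted p = 0.256), no filter (0.43, adjusted p = 0.0929) and an untrended variance model (0.43, adjusted p = 0.134).

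Acot2 and Acot1 are close relatives in sequence and lie next to each other on chromosome 12, where RefSeq (GRCm38.p6) places Acot4, Acot3, Acot5 and Acot6 after them. Whether the probe sets of one gene also read the other was not tested. Of the neighbours, Acot3 and Acot6 were bright enough to be tested, and neither was called in any comparison. Acot3 averaged 84.0 ± 24.3 in high-FASN hearts, 104.7 ± 26.5 in low-FASN hearts and 130.4 ± 2.01 in controls (SD, n = 2 each), a different order from that of Acot2. Acot4 and Acot5 were below the filter, at most 26.0 and 4.60 on any array.

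The 250 bases upstream of the annotated starts of Acot2 and Acot1 are shown because both neighbours were called higher in high-FASN than in low-FASN hearts, and those of Acsl6 because it had the widest difference (of its 3 annotated starts, the one with most CpG). All are from RefSeq promoter windows of GRCm38.p6, plus strand, 5′ to 3′, and capitals mark the CCAAT box, the GC box (letters GGGCGG) or the TATA box (letters TATAAA) on either strand. Acot2 lies at chr12:83987611-83987860, Acot1 at chr12:84009252-84009501 and Acsl6 at chr11:54303954-54304203.
Acot2: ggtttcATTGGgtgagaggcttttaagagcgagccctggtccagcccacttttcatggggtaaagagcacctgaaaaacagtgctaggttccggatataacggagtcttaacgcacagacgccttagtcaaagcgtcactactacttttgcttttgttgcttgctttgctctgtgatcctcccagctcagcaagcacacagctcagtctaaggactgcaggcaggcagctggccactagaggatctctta
Acot1: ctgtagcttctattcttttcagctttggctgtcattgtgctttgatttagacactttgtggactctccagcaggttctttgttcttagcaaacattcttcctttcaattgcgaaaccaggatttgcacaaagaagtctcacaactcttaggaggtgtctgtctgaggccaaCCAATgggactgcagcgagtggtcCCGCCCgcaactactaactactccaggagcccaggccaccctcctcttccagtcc
Acsl6: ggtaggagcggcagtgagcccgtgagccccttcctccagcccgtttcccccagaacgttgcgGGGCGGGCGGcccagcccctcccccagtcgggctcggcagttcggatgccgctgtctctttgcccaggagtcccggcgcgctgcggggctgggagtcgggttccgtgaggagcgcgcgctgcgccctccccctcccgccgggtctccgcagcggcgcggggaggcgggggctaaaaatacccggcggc
The Acot2 window held 1 CCAAT match, 244 bases before the start and on the minus strand, and 0 GC boxes. The Acot1 window held a CCAAT match 79 bases and a GC box 55 bases before the start. The Acsl6 window held 2 overlapping GC boxes, 188 and 184 bases before the start, and 30 CpG, against 6 in Acot2 and 4 in Acot1.

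Promoter windows were found for 9 of the 10 genes, 12 windows in all. CCAAT was found in 8 of 12 member windows and in 33.8% of 32851 windows of the same length, and GGGCGG in 9 of 12 and in 32.7%. The direct repeat bound by PPAR alpha in its consensus form, AGGTCA repeated in the same direction with 1 base between, was in 0 of 12 member windows and 0.0335% of all. A looser form, in which each AGGNCA may hold any base at its N, was in 0 of 12 and 0.338%. A single AGGTCA, which is part of that repeat, was in 1 of 12, a window of Acsl6 not printed here, and in 14% of all. The E box CACGTG was in 0 of 12 and 6.02% of all, and TATAAA in 1 of 12, that of Acot9, and 12.4% of all. These are matches of letters on both strands in short windows and show nothing of binding.

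The remaining thioesterases were called in none of the 3 comparisons. Acot7 encodes a cytosolic thioesterase abundant in brain, and its probe set 1417094_at read 1565 and 1450 in high-FASN hearts, 1460 and 1353 in low-FASN hearts, and 1409 and 1407 in controls. Its differences were 0.096 in high-FASN hearts (limma, adjusted p = 0.4, 95% interval -0.059 to 0.25) and -0.0024 in low-FASN hearts (adjusted p = 0.984, 95% interval -0.16 to 0.15).

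Acot13 encodes a small thioesterase found at mitochondria. Its probe set, 1417316_at, read 8491 and 7490 in high-FASN hearts, 8337 and 8402 in low-FASN hearts, and 7870 and 7434 in controls. The low-FASN line lay above the controls, and the high-FASN line overlapped both. The differences were 0.060 in high-FASN hearts (limma, adjusted p = 0.59, 95% interval -0.084 to 0.20) and 0.13 in low-FASN hearts (adjusted p = 0.179, 95% interval -0.015 to 0.27). The low-FASN value passed under 5 of 16 alternatives, quantile normalization and cyclic loess among them, with the adjusted p between 0.0124 and 0.666 over all of them.

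Acot9 encodes a mitochondrial thioesterase. Its probe set, 1418073_at, read 1307 and 1233 in high-FASN hearts, 1354 and 1264 in low-FASN hearts, and 1197 and 1062 in controls. Every transgenic array lay above both controls, and the lines overlapped. The differences were 0.17 in high-FASN hearts (limma, adjusted p = 0.193) and 0.21 in low-FASN hearts (adjusted p = 0.0815), and neither passed. Between the lines Acot7 differed by 0.099 (95% interval -0.056 to 0.25), Acot13 by -0.070 (95% interval -0.21 to 0.075) and Acot9 by -0.043 (95% interval -0.22 to 0.13), high minus low on the log2 scale.

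**Figure D2:**
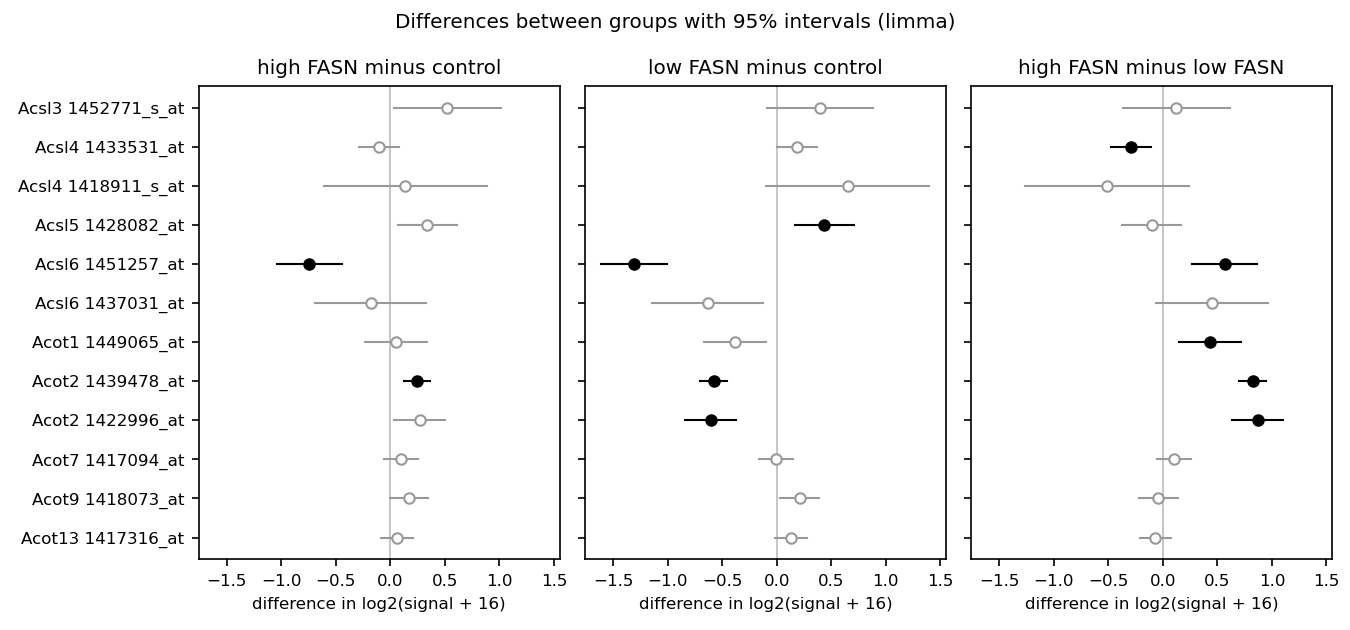
Differences in log2(signal + 16) for the 12 tested probe sets in high-FASN hearts against control, the low-FASN line against control and the high-FASN line against the low-FASN line. Points are limma estimates, lines are 95% intervals, and filled points passed at an adjusted p below 0.05. Both Acot2 probe sets lie right of 0 in the left and right panels and left of it in the middle one, and the brighter Acsl6 probe set lies left of 0 in the left and middle panels.

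Other genes that make or split acyl-CoA were read from lists of related genes. Of 19 other synthetase genes 16 had a probe set and 7 were tested. In high-FASN hearts against control 1 rose and 0 fell (median log2 difference 0.064 over the tested genes, beside 0.037 over all tested probe sets). In low-FASN hearts against control 0 were called by limma, and 0 had an unadjusted p below 0.05. The gene that rose was Slc27a2, which encodes a transporter with very-long-chain acyl-CoA synthetase activity, at 118 ± 25.3 in high-FASN hearts, 41.3 ± 2.36 in low-FASN hearts and 24.1 ± 6.84 in controls (SD, n = 2 each). Its log2 difference was 1.74 in high-FASN hearts against control (limma, adjusted p = 0.0023). It was 1.22 in high-FASN hearts against the low-FASN line (adjusted p = 0.0115). The control and low-FASN signals of Slc27a2 were dim, so the size is uncertain. Slc27a2 passed the filter only through its high-FASN arrays, so these calls carry no weight of their own. The acetyl-CoA synthetase genes Acss1 and Acss2 did not pass, with log2 differences of 0.057 and 0.064 in high-FASN hearts.

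Of 14 other thioesterase genes 13 had a probe set and 7 were tested. In high-FASN hearts against control 1 rose and 1 fell (median -0.17), and in low-FASN hearts against control 0 rose and 1 fell (median -0.18, beside 0.018 over all tested probe sets). Acot11, known for its role in brown fat, was the one that fell. It averaged 577 ± 1.97 in high-FASN hearts, 534 ± 30.7 in low-FASN hearts and 721 ± 41.6 in controls (SD, n = 2 each), with log2 differences of -0.31 (limma, adjusted p = 0.0413) and -0.42 (adjusted p = 0.00692) from control. Of 5 brown fat markers, Ucp1 rose by 5.12 and 3.21 and Cidea by 1.16 and 0.37 in high-FASN and low-FASN hearts against control. Cox8b was called in neither line against control (0.093 and -0.14 in the same order), and Elovl3 and Otop1 were below the filter. The lysosomal thioesterase gene Ppt2 rose by 0.49 in high-FASN hearts against control (adjusted p = 0.033), a call lost with median centring (0.42, adjusted p = 0.0517).

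Proteins that bind acyl-CoA or pass it into mitochondria formed a further list of 13 genes, of which 11 were tested. In high-FASN hearts against control 1 rose and 0 fell, in low-FASN hearts against control 3 rose and 2 fell, and in high-FASN hearts against the low-FASN line 3 were higher and 1 lower. Dbi, the acyl-CoA binding protein, averaged 10363 ± 344 in high-FASN hearts, 8858 ± 233 in low-FASN hearts and 7725 ± 33.0 in controls (SD, n = 2 each). It rose by 0.42 in high-FASN hearts (limma, adjusted p = 0.000591) and by 0.20 in low-FASN hearts (adjusted p = 0.0169). The low-FASN rise did not pass with median centring (0.11, adjusted p = 0.15). Acbd5 stood at 0.25 in low-FASN hearts against control (limma, adjusted p = 0.0427). In high-FASN hearts it stood at -0.33 against the low-FASN line (adjusted p = 0.0185) and was not called against control.

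Cpt2, which re-forms acyl-CoA inside mitochondria, stood in the same order of group means as Acot2. So did Cox8b and the heart muscle markers Myh6, Tnnt2, Actc1, Tnni3, Mb, Myl2 and Pln, though not Ryr2. Cpt2 averaged 4784 ± 317 in high-FASN hearts, 3570 ± 134 in low-FASN hearts and 4173 ± 51.9 in controls (SD, n = 2 each). The high-FASN line was higher than the low-FASN line by 0.42 (limma, adjusted p = 0.00182), and Cpt2 fell by 0.22 in low-FASN hearts against control (adjusted p = 0.0238). In high-FASN hearts against control Cpt2 stood at 0.19 without passing (adjusted p = 0.0615). The carnitine carrier gene Slc25a20 fell by 0.29 in low-FASN hearts against control (adjusted p = 0.0156), which did not pass with cyclic loess (-0.21, adjusted p = 0.0643). Cpt1a, the carnitine transferase isoform of liver, rose by 0.46 in low-FASN hearts (adjusted p = 0.00458) and stood at 0.20 in high-FASN hearts (adjusted p = 0.161).

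PPAR alpha and genes known to respond to it did not share 1 direction. Of 11 listed genes 8 were tested, and in high-FASN hearts against control 2 rose and 1 fell, in low-FASN hearts 3 rose and 2 fell. Ppara itself fell by 0.51 in high-FASN hearts (limma, adjusted p = 0.00163) and by 1.32 in low-FASN hearts (adjusted p = 4.37e-06) against control, so its lowest group was that of Acot2. Angptl4, a lipase inhibitor, averaged 999 ± 165 in high-FASN hearts, 786 ± 6.54 in low-FASN hearts and 237 ± 15.8 in controls (SD, n = 2 each), and was called higher in both lines (adjusted p = 6.96e-06 in high-FASN hearts and 1.8e-05 in low-FASN hearts). Ucp3, a mitochondrial carrier, rose by 0.49 in high-FASN hearts (adjusted p = 0.0149) and by 0.71 in low-FASN hearts (adjusted p = 0.00137). Vldlr stood at -0.27 in low-FASN hearts against control (adjusted p = 0.00804) and was not called in high-FASN hearts.

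**Figure D3:**
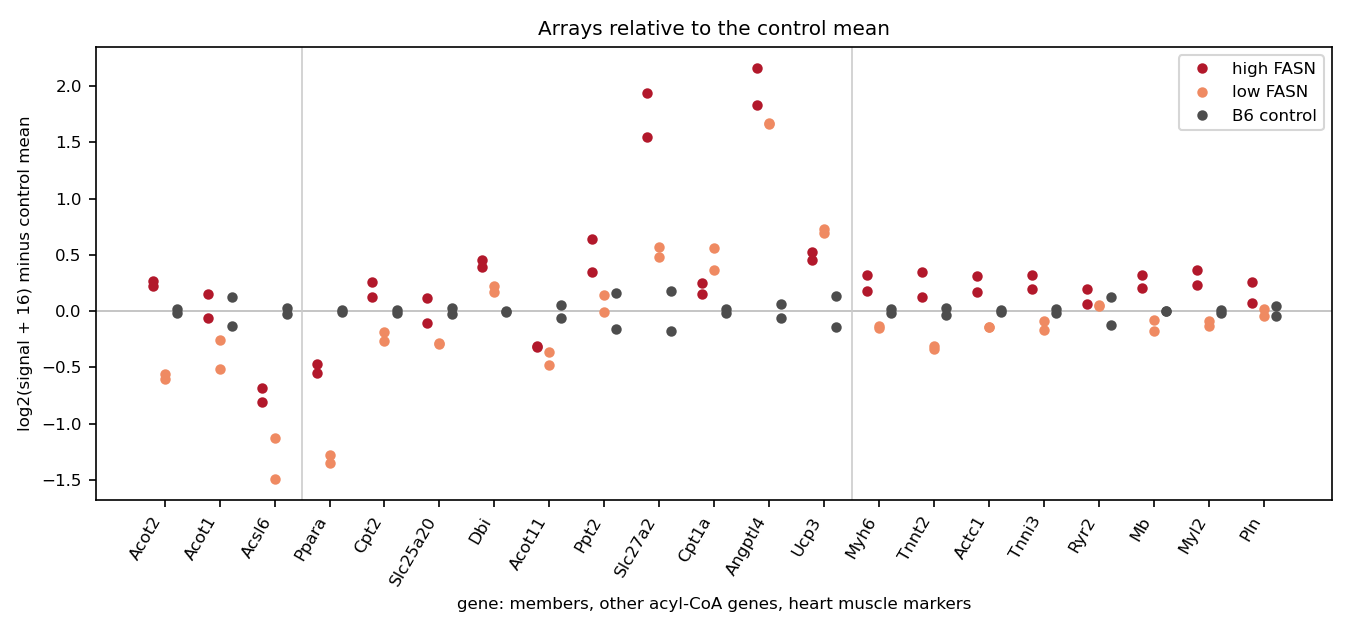
Each array's log2(signal + 16) minus the control mean of the same probe set, for Acot2, Acot1 and Acsl6, for 10 other genes of acyl-CoA handling and of the PPAR alpha list, and for the 8 heart muscle markers. Points are arrays, 2 each of the high-FASN line, the low-FASN line and controls. The low-FASN points of Acot2 lie near -0.58, further below 0 than those of any heart muscle marker.

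Heart muscle markers were read beside Acot2, at the deposited scaling first. Between the lines 6 of 8 were higher in high-FASN hearts and 0 lower, with a median of 0.39, where Acot2 differed by 0.82. Against control, 6 were higher and 0 lower in high-FASN hearts, with a median of 0.25, where Acot2 1439478_at stood at 0.24, about the same. In low-FASN hearts against control 0 were higher and 1 lower, with a median of -0.13, where Acot2 1439478_at stood at -0.58. Their summed signal was 211280 to 234920 in high-FASN hearts, 170110 to 174200 in low-FASN hearts and 185560 to 191940 in controls, and no marker was near 0 in any group. Their median difference between the lines was 0.060 with quantile normalization (3 higher and 1 lower), 0.23 with cyclic loess and 0.40 with median centring (6 higher and 0 lower in each of these). Against control, 1 was higher in high-FASN hearts with quantile normalization or median centring and 7 with cyclic loess, and 0 were lower under any of these. In low-FASN hearts against control 6 were lower and 0 higher with median centring (median -0.21), and 1 was higher and 1 lower with quantile normalization or cyclic loess. Acot2 differed between the lines by 0.83 with quantile normalization (adjusted p = 2.92e-05). The 18 hybridization control probe sets, added to each sample alike, had a median log2 difference of 0.27 in high-FASN hearts against the low-FASN line. Against control it was 0.077 in high-FASN hearts and -0.19 in low-FASN hearts, where Cpt2 fell by 0.22 and Slc25a20 by 0.29. The part of this shift in the values of the genes was not tested.

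Markers of other cells moved as well. Adipocyte markers, of which 5 of 8 were tested, had 4 higher and 0 lower in each line against control, with summed signals of 39732 to 43241 in high-FASN hearts, 32092 to 32875 in low-FASN hearts and 21087 to 21528 in controls. Most of each sum came from Fabp4, which was called in neither line against control. Fat tissue expresses Acsl genes, Acsl5 among them, and Acsl5 lay above the controls in both lines. Between the lines 2 adipocyte markers were higher in high-FASN hearts and 0 lower, where Acsl5 stood at -0.10. Macrophage markers, all 6 tested, had 0 higher and 4 lower in high-FASN hearts against the low-FASN line, the same direction as Acsl4, with summed signals of 10925 to 10994 in high-FASN hearts, 13563 to 13954 in low-FASN hearts and 11596 to 11684 in controls. Fibroblast markers were higher in both lines too (5 of 7 in high-FASN hearts and 6 of 7 in low-FASN hearts, against control, 0 lower in either), as were all 4 smooth muscle markers. Endothelial markers had 3 of 6 higher and 0 lower in each line against control, and 1 higher and 1 lower between the lines. Of 4 erythroid markers 1 was tested. It was higher in high-FASN hearts against control, but it passed the filter only through its high-FASN arrays, so that call carries no weight of its own.

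The widest shifts were in markers of tissues other than heart muscle. Airway markers, all 5 tested, had 4 higher in high-FASN hearts against control and 4 higher against the low-FASN line, and 1 was higher in low-FASN hearts against control. The 4 higher in high-FASN hearts were Scgb1a1, Scgb3a1, Scgb3a2 and Bpifa1. All of them passed the filter only through their high-FASN arrays, so their calls in high-FASN hearts carry no weight of their own. The summed signals of all 5 were 3010 to 3206 in high-FASN hearts, 217.8 to 254.2 in low-FASN hearts and 138.8 to 185.8 in controls. Lymphocyte markers, of which 2 of 4 were tested (Ighm and Jchain), had both higher in each line against control and both lower in high-FASN than in low-FASN hearts. Cd79a and Cd3e were below the filter and did not follow. Cd79a averaged 19.6, 5.35 and 9.67 and Cd3e 16.7, 7.20 and 22.8 in high-FASN hearts, low-FASN hearts and controls. The summed signals of all 4, mostly from Ighm and Jchain, were 467.5 to 474.2 in high-FASN hearts, 2150 to 2180 in low-FASN hearts and 84.4 to 163.8 in controls. Brown fat markers, of which 3 of 5 were tested, had 2 higher in each line against control and all 3 higher in high-FASN than in low-FASN hearts. Their summed signals were 23662 to 25194 in high-FASN hearts, 19427 to 19728 in low-FASN hearts and 20813 to 20903 in controls. Most of each sum came from Cox8b, which averaged 21034 in high-FASN hearts, 17902 in low-FASN hearts and 19713 in controls. The sums therefore do not show Ucp1, which averaged 822, 208 and 8.24 in the same order. The part of these cells and tissues in the values of Acot2, Acsl6, Acsl5, Acsl4 and Slc27a2 was not tested.

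**Figure D4:**
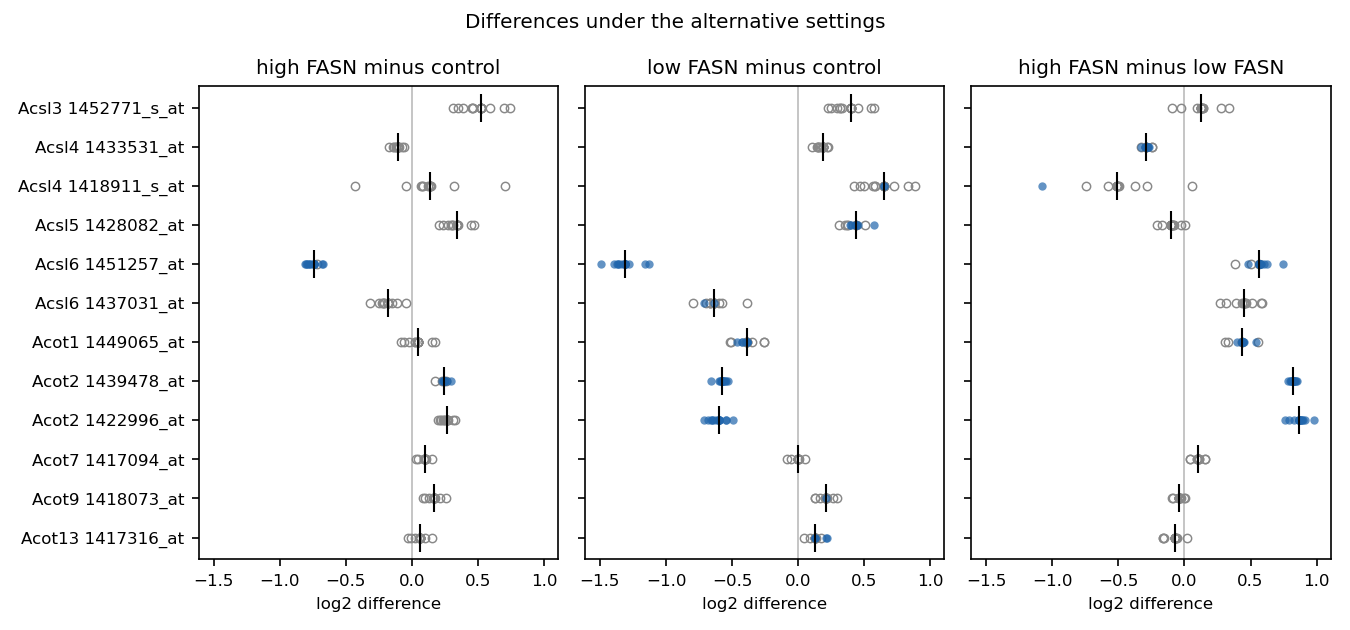
Log2 differences of the 12 tested probe sets under 16 alternative settings (15 for the 3 dimmest, which a stricter filter removes) in high-FASN hearts against control, the low-FASN line against control and the high-FASN line against the low-FASN line. Circles are alternatives, filled where the adjusted p was below 0.05, and black ticks are the values reported above. Both Acot2 probe sets are filled throughout in the middle and right panels.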

How the data were processed

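Gene expression in 6 mouse heart samples was read on Affymetrix arrays. The deposited table gives linear intensities, and the submitters' processing notes name GCOS, with version, algorithm and scaling not given in the sources used here. All arrays had the same trimmed mean, so the deposited scaling was kept. The table held 45101 probe sets, 64 of them controls. In the supplied annotation 34945 of the other 45037 had 1 symbol, 932 had more than 1, and 9160 had no entry.

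The log2(signal + 16) values were fitted with limma 3.58.1 (R 4.3.3). Only probe sets with a mean log2 value of 5.98 or more entered the tests (the median over those other than controls, near a signal of 47.0), 22519 in all. Members passing this filter through a bright group had to differ, so counts over them describe only those tested. One model with 3 group means and an intensity trend was fitted to all 6 arrays (3 residual and 6.43 prior degrees of freedom). It gave two-sided p-values adjusted by Benjamini-Hochberg over all tested probe sets. On simulated data, for high FASN against control, it recovered 13 of 66 planted log2 differences of 0.5, 37 of 67 of 1 and 63 of 67 of 2. There were 6 unplanted calls among 22519 probe sets. The planted differences were a far smaller share of the probe sets than the calls were in the data. These rates need not hold for the members. A member without a call may still differ. Where a gene had several probe sets, the brightest stood for it in counts of genes. Named genes are all members, the genes called in the lists of related genes (at most 5 per list by size), and Fasn and Ppara. Acss1, Acss2, Acot3, Acot4, Acot5, Acot6, Ucp1 and Cidea were named after their values were seen. So were the remaining brown fat markers, the lymphocyte markers, Scgb1a1, Scgb3a1, Scgb3a2, Bpifa1 and Fabp4. The members and lists were chosen with earlier results of these data known. Alternatives were other scalings, pseudocounts, filters, variance models, fits of the 2 groups alone, a block for replicate number, and each array left out. No set test was run. Precision is limited by 2 arrays per group. Promoter windows are from RefSeq GRCm38.p6. Figures used Python 3.11.15 and matplotlib 3.10.9.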

Additional observations from a re-analysis of the deposited data

Results flagged for a closer look

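Probe sets are given here because the lines lay on opposite sides of the control arrays without overlap and the difference between the high-FASN and low-FASN lines passed. For Acot2 probe set 1439478_at the high-FASN line was higher than the low-FASN line by 0.82 on the log2 scale (limma, adjusted p = 4.23e-05), and for Acot2 probe set 1422996_at by 0.87 (adjusted p = 0.000767). For Acsl4 probe set 1433531_at the high-minus-low difference was -0.29 (adjusted p = 0.0381). Neither line passed against control for that probe set (adjusted p = 0.449 in high-FASN hearts and 0.139 in low-FASN hearts). The other tested Acsl4 probe set, 1418911_s_at, had both line means above control (0.14 and 0.65, neither called). The share of all tested probe sets that meet this rule is not given here. The Acot2 differences passed under all 16 alternatives and the Acsl4 difference under 8 of 16. With 2 arrays per group, no array could be tested as an outlier.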

How the results depend on the processing

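Member probe sets called in high-FASN hearts against control numbered 2, and 1 with median centring or an untrended variance model, with 0 to 2 when 1 array was left out (0 without control array 2, 1 without control array 1). In low-FASN hearts against control 4 were called, 7 when only the 4 arrays compared were fitted, and 3 to 7 when 1 array was left out (7 without high-FASN array 1). In high-FASN hearts against the low-FASN line 5 were called, 3 without a filter, 2 with an untrended variance model, and 2 to 4 when 1 array was left out (low-FASN array 1 left out gave 2, low-FASN array 2 gave 3). Where an array was left out, the lone array of its group was assumed to vary like the others. Signs turned only for values that had not been called. With median centring Acot13 stood at -0.0090 and Acot1 at -0.021 in high-FASN hearts against control, and with cyclic loess Acot7 stood at 0.0024 in low-FASN hearts against control. Leaving out 1 array turned further signs. In high-FASN hearts against control Acsl4 1418911_s_at ranged from -0.43 to 0.70, Acot13 from -0.030 to 0.15 and Acot1 from -0.081 to 0.18. In low-FASN hearts against control Acot7 ranged from -0.057 to 0.052. In high-FASN hearts against the low-FASN line Acsl4 1418911_s_at ranged from -1.08 to 0.054, Acsl5 from -0.21 to 0.0066, Acsl3 from -0.091 to 0.34, Acot13 from -0.16 to 0.021 and Acot9 from -0.092 to 0.0064. The cause was not tested. Over all probe sets, 57% of calls in high-FASN hearts against control were higher, and 37.3% with median centring, and 55.6% and 38.9% in low-FASN hearts against control. Totals over all tested probe sets in the same 3 comparisons were 3234, 5475 and 4179, and 1233, 3576 and 1449 with an untrended variance model, 2197, 4266 and 2899 of 45037 without a filter, and as few as 1398, 2897 and 1553 when 1 array was left out. With the replicate number as a block, 2, 5 and 5 member probe sets and 3392, 5647 and 4325 of all were called. Same-numbered arrays did not deviate together (correlations of 0.00040 to 0.040), so the numbers give no pairing.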
